A study of Mus musculus with 22 samples.

Results

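The 10 genes Phlda3, Zmat3, Sulf2, Fam212b, Zfp365, Psrc1, Ak1, Slc19a2, Ei24 and Zfp990 were chosen by their measured values, from 33641 gene symbols in all, as genes among the largest rises after loss of Chd8 that return to base when P53 is lost as well. The values that selected them are therefore the levels in Chd8 KO, WT and DKO, and every comparison among those 3 groups, and the interaction built from them, is given below as a description of the members. Where the members called there are counted, the count follows from the choice of members and nothing is read from it. The RNA came from LSK cells, a sorted bone marrow fraction without lineage markers but with Sca-1 and Kit, in which hematopoietic stem cells and multipotent progenitors are found. The mice were C57BL/6, and all 4 groups had received pI;pC, a double-stranded RNA that induces the deletion, 6 days before the harvest. The groups were WT, Chd8-/- (Chd8 KO), P53-/- (P53 KO) and Chd8-/-P53-/- (DKO), with 3 libraries each, and the cells were used straight after sorting. The labels used here give neither the Cre driver nor the age of the mice, nor whether the 3 libraries of a group are 3 animals. The p-values therefore rest on a spread between libraries that may be technical.

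P53 is a transcription factor that is stabilised after DNA damage and other stress and then binds a response element made of a pair of decamers near its target genes. Its targets halt the cell cycle, start apoptosis or alter metabolism, and in hematopoietic stem cells P53 is known to limit survival after damage. CHD8 is an ATP-dependent chromatin remodeler of the CHD family that is known to bind P53 and to restrain its activity.

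Levels are given in TPM, a share of all transcripts corrected for their length, summed over the transcripts of a gene. Fold changes were estimated with limma on log2(TPM + 1) and are printed ± SE, and this scale understates the change of low genes. The test covered 13162 genes, those whose TPM averaged 1 or more over all 12 libraries, and calls needed an adjusted p below 0.05. All 10 members passed that filter, but Fam212b and Zfp365 passed only through their level in Chd8 KO. Each library summed to 1000000 TPM, so depth is unknown, and between 12438 and 13236 genes reached 1 TPM. The targeted genes followed the labels: Trp53 was at 230 to 268 TPM in WT and Chd8 KO and at 16.1 to 24.3 TPM in P53 KO and DKO. Chd8 was at 48.2 to 73.9 TPM in WT and P53 KO and at 26.2 to 44.4 TPM in Chd8 KO and DKO, so Chd8 transcripts were still counted after deletion. The LSK markers Kit, Ly6a and Cd34 were present in every library, at 180 to 295, 85 to 356 and 411 to 647 TPM. P53 KO replicates 1 and 2 carried another run number than the other 10 libraries and had 2.12% and 1.9% of their TPM on mitochondrial genes, against 5.33% to 6.97% in the rest.

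Promoter windows of 300 bases, from 250 bases before to 50 bases after the gene start, came from RefSeq (GRCm38.p6), which held 14 windows for 8 of the members and none for Zmat3 and Zfp990. They were searched on both strands for the p53 decamer consensus without mismatch, and for a full element of 2 decamers with up to 3 mismatches and a spacer of up to 3 bases. The windows that held a match are printed in gene direction, with the matched bases in capitals. Windows without a match were not ranked by their closeness to the element that P53 is known to bind. A match describes these letters only and shows no binding.
Ei24, chr9:36797285-36797584, minus strand, exact decamer: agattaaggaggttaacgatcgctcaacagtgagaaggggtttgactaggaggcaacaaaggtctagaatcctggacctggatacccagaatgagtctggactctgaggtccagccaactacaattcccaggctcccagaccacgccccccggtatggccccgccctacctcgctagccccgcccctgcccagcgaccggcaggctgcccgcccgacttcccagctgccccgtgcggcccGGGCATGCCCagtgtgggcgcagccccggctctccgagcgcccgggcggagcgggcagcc
Fam212b, chr3:105705208-105705507, plus strand, exact decamer: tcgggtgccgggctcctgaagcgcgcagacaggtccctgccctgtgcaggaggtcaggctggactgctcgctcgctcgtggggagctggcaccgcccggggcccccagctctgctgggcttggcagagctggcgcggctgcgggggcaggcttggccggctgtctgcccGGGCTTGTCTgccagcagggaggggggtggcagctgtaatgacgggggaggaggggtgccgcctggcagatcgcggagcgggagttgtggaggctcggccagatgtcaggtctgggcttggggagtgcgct
Zfp365, chr10:67912613-67912912, minus strand, overlapping near-full elements: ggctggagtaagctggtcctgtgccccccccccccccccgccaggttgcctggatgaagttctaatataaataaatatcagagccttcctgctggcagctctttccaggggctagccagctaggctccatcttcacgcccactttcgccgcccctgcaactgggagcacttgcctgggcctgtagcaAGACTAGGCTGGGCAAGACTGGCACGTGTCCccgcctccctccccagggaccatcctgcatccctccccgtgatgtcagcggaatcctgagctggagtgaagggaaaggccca
The decamer began 10 bases before the start of Ei24 and 81 bases before the second RefSeq start of Fam212b, which RefSeq calls Inka2. The first of the 2 overlapping near-full elements of Zfp365 began 63 bases before its start and had 2 mismatches. An exact decamer was thus in 2 of 14 member windows, against 8.36% of the 32851 windows of all genes. A near-full element was in 1 of 14, against 5.76%. Such counts lie near the shares of all windows and are no result about the members.

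By RefSeq (GRCm38.p6), Phlda3 lies at chr1:135766085-135769134 and Slc19a2 at chr1:164249046-164265385. Ak1 is at chr2:32621758-32635058 and Sulf2 at chr2:166073899-166155683. Chromosome 3 holds Zmat3 at chr3:32334792-32365665, Fam212b at chr3:105704599-105720842 and Psrc1 at chr3:108383804-108388231. Zfp990 is at chr4:145510759-145538251, Ei24 at chr9:36779153-36797334 and Zfp365 at chr10:67886105-67912662. The members thus sit on 6 chromosomes and none borders another.

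The members were low to moderate in WT and high in Chd8 KO, and all 10 lay higher in every Chd8 KO library than in any WT library. The ratio of group means ran from 2.07 for Ei24 to 30.9 for Fam212b. By log2 fold change they held ranks from 9 (Phlda3) to 228 (Ei24) among all tested genes. The rule has no numerical limit, and the genes ranked next to Ei24, Gm684 above it and Tob1 below it, had the same log2 fold change of 1.04. Of all 13162 genes tested, 9.65% were called higher and 6.98% lower in Chd8 KO than in WT, and 37.1% did not overlap between these groups. Under median-of-ratios scaling 1062 genes were called higher and 1067 lower, against 1270 and 919 without it. All 10 members were among those called higher, which follows from how they were chosen.

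**Figure D1:**
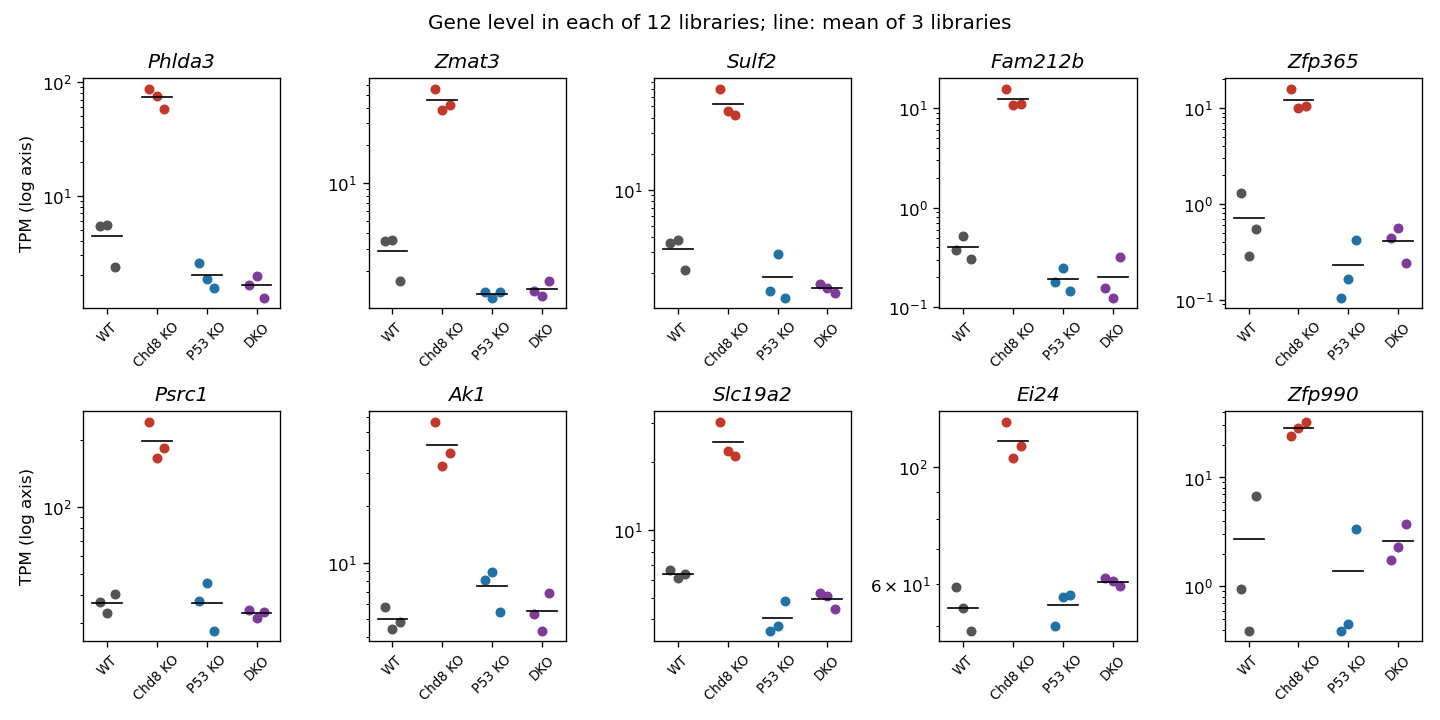
TPM (log axis) of each of the 10 members in each of the 12 libraries, 1 panel a gene with its own axis, points for libraries and lines for the mean of 3 libraries of WT, Chd8 KO, P53 KO and DKO. In every panel the 3 Chd8 KO points lie above the other 9, while the distance runs from a ratio to WT of 2.07 for Ei24 to 30.9 for Fam212b.

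Among the members that act on survival signalling, Phlda3 is a pleckstrin homology domain protein that competes with Akt for membrane lipids and so restrains Akt. Phlda3 was at 5.41, 5.55 and 2.39 TPM in the WT libraries, 87, 75 and 58.2 in Chd8 KO, 2.58, 1.86 and 1.54 in P53 KO, and 1.63, 1.99 and 1.27 in DKO. The Chd8 KO libraries stood far above all others, and every DKO library lay below every WT library. The log2 fold change was 3.81 ± 0.26 in Chd8 KO against WT and -1.0 ± 0.26 in DKO against WT. Ei24 encodes a membrane protein of the endoplasmic reticulum that was first found as induced by etoposide and binds Bcl-2. It was at 59.3, 54.1 and 49 TPM in WT, 122, 104 and 110 in Chd8 KO, 50, 56.9 and 57.3 in P53 KO, and 61.6, 61 and 59.5 in DKO. Ei24 was thus the member with the highest level in WT and the smallest rise, 1.04 ± 0.09. Its 3 DKO libraries lay just above the 3 WT libraries, by 0.17 ± 0.09.

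Zmat3 encodes a zinc finger protein that binds RNA and affects splicing and the stability of transcripts. It was at 3.48, 3.52 and 1.67 TPM in WT, 56.4, 38.5 and 41.9 in Chd8 KO, 1.37, 1.23 and 1.36 in P53 KO, and 1.39, 1.28 and 1.66 in DKO. WT replicate 3 lay close to the libraries without P53, and the other 2 WT libraries lay above them. The rise in Chd8 KO was 3.60 ± 0.21. Psrc1 encodes a microtubule-associated protein of the mitotic spindle. It was at 37.4, 33.2 and 40.6 TPM in WT, 241, 166 and 183 in Chd8 KO, 37.7, 45.4 and 27.7 in P53 KO, and 34.3, 31.5 and 33.7 in DKO. Psrc1 reached the highest mean TPM of the members in Chd8 KO, 197 ± 39.3 (SD, n = 3), and its libraries overlapped between WT, P53 KO and DKO. Zfp365 is the mouse counterpart of human ZNF365, which is known to act in replication stress and genome stability. It was at 1.3, 0.286 and 0.543 TPM in WT, 15.9, 9.98 and 10.5 in Chd8 KO, 0.105, 0.163 and 0.425 in P53 KO, and 0.445, 0.556 and 0.243 in DKO. Outside Chd8 KO a single library, WT replicate 1, exceeded 1 TPM.

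Fam212b, the inhibitor of the kinase Pak4 now named Inka2, was at 0.379, 0.521 and 0.304 TPM in WT, 15.6, 10.8 and 10.9 in Chd8 KO, 0.178, 0.251 and 0.145 in P53 KO, and 0.158, 0.125 and 0.322 in DKO. It had the largest ratio of means, 30.9, and the lowest WT level of the members, so its log2 fold change of 3.24 ± 0.18 depends on the pseudocount and was 4.64 with a pseudocount of 0.1. Sulf2 encodes an extracellular sulfatase that trims heparan sulfate and so alters growth factor signalling. It was at 3.6, 3.8 and 2.12 TPM in WT, 70.1, 46 and 42.1 in Chd8 KO, 1.43, 2.9 and 1.25 in P53 KO, and 1.62, 1.5 and 1.37 in DKO. The rise was 3.68 ± 0.26, and every DKO library lay below every WT library.

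Of the metabolic members, Ak1 encodes the cytosolic adenylate kinase that interconverts adenine nucleotides. It was at 5.81, 4.46 and 4.81 TPM in WT, 56.3, 32.9 and 38.6 in Chd8 KO, 8.1, 8.94 and 5.47 in P53 KO, and 5.33, 4.34 and 6.92 in DKO. The rise was 2.83 ± 0.23, and WT and DKO overlapped. Slc19a2 encodes a high-affinity thiamine transporter. It was at 6.67, 6.09 and 6.39 TPM in WT, 30.3, 22.4 and 21.3 in Chd8 KO, 3.56, 3.75 and 4.82 in P53 KO, and 5.26, 5.1 and 4.45 in DKO. Its log2 fold change in Chd8 KO against WT was 1.78 ± 0.15, and every library without P53 lay below every WT library.

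Zfp990 is a zinc finger gene of a large cluster on chromosome 4. It was at 0.952, 0.392 and 6.74 TPM in WT, 24, 28.7 and 32.4 in Chd8 KO, 0.391, 0.456 and 3.34 in P53 KO, and 1.73, 2.32 and 3.77 in DKO. It was the least even member, since replicate 3 of WT and of P53 KO stood above the other 2 libraries of its group. The log2 fold change in Chd8 KO against WT was 3.40 ± 0.60, the widest error of the members. Genes of this cluster are near-identical, and no source used here says how shared reads were assigned, so its level is uncertain.

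Chd8 KO replicate 1 was the highest Chd8 KO library for 9 of the 10 members, Zfp990 being the exception, while it was the highest for 24.3% of all tested genes. Replicate 2 was the lowest for 6 members and replicate 3 for 3. Markers of other cell types and of the LSK gate itself also differed between these groups. Over all 13162 genes, 9.65% were called higher and 6.98% lower in Chd8 KO against WT. In DKO against Chd8 KO 832 genes were called higher and 4.21% lower, and in DKO against P53 KO 11.2% were called higher. The summed level of 8 B cell markers was 134 to 381 TPM in WT and 43.4 to 51.6 in Chd8 KO, and 5 of the 7 tested were called lower. The summed level of 10 erythroid markers was 275 to 432 TPM in WT, 126 to 129 in Chd8 KO and 442 to 1398 in DKO, with 4 of 10 called lower in Chd8 KO against WT, 10 of 10 called higher in DKO against Chd8 KO and 4 of 10 called higher in DKO against P53 KO. Of 6 tested T and NK cell markers, 3 were called lower in Chd8 KO against WT. Summed over 9 such markers, however, the level was 150 to 160 TPM in WT, 146 to 202 in Chd8 KO and 43 to 126 in DKO. For 9 neutrophil and monocyte markers the sum was 35.6 to 895 TPM in WT and 90 to 300 in Chd8 KO, and 0 of 8 tested were called. Among 10 genes of the LSK gate and of stem cells, Slamf1, Procr and Ly6a were called higher in Chd8 KO against WT and Flt3 lower. Group means went from 6.54 to 18.4 TPM for Slamf1, 20 to 54.9 for Procr, 148 to 296 for Ly6a and 150 to 60.2 for Flt3. Unlike the members, Ly6a overlapped between these groups, at 122, 98.4 and 225 TPM in WT and 356, 352 and 180 in Chd8 KO. Slamf1 and Ly6a, like the members, were called lower in DKO against Chd8 KO, at 7.53 and 120 TPM in DKO. No B cell or erythroid marker was at 0 in every library of a group. Their part in the members' levels was not tested, and in such bulk samples fewer cells of a type and less RNA per cell cannot be told apart.

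With both genes deleted, the members were near or below their WT level, which is again a property they were chosen by. The log2 fold change of DKO against Chd8 KO ran from -0.87 for Ei24 to -4.81 for Phlda3, with a median of -3.12 against 0.06 over all genes, and all 10 were among the 4.21% of genes called lower there. In DKO against WT, none of the 10 was among the 5.23% of genes called. Their values there ran from -1.0 for Phlda3 to 0.35 for Zfp990, with a median of -0.23 against 0.09 over all genes. Besides Phlda3, every DKO library lay below every WT library for Zmat3 (-0.63 ± 0.21), Sulf2 (-0.72 ± 0.26) and Slc19a2 (-0.32 ± 0.15), and every one lay above for Ei24. These are 5 of 10 members, and 31.2% of all genes did not overlap between DKO and WT. The interaction, DKO against P53 KO minus Chd8 KO against WT on the log2 scale, ran from -3.99 for Phlda3 to -0.89 for Ei24. For 9 members it was among the 0.836% of genes called lower, and the exception was Zfp990 at -2.64 ± 0.85. The Chd8 KO, WT and DKO levels in this term are those the members were chosen by, so that count was set by the choice.

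**Figure D2:**
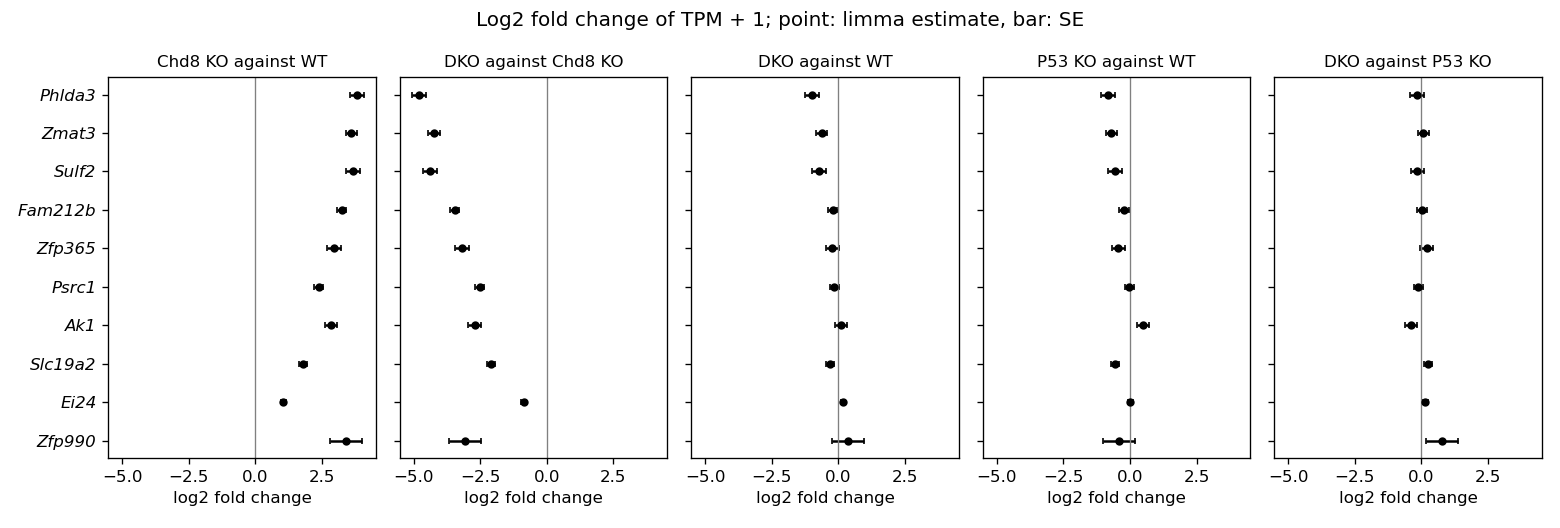
Log2 fold change of TPM + 1 (horizontal axis) of the 10 members in 5 comparisons, with points for the limma estimate and bars for the SE. In Chd8 KO against WT and DKO against Chd8 KO the points lie between 1.04 and 3.81 and between -4.81 and -0.87, while in DKO against P53 KO they lie between -0.38 and 0.77.

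Whether P53 sets the level of the members in cells that keep Chd8 was asked by P53 KO against WT, a comparison that the choice of members did not use, though it shares the WT libraries. The test called 0 of the 10 members, beside 24 of 13162 genes or 0.182%. With no adjustment, 3 members had a p under 0.05, all lower in P53 KO, and 14.7% of all genes did. Slc19a2 was at 4.04 ± 0.682 TPM in P53 KO against 6.39 ± 0.29 in WT (SD, n = 3), a difference of -0.56 with a 95% interval of -0.89 to -0.23 and an adjusted p of 0.217. Every P53 KO library was below every WT library. Zmat3 differed by -0.70 (-1.18 to -0.23, adjusted p = 0.228), also with no overlap. For Phlda3 the difference was -0.82 (-1.39 to -0.24, adjusted p = 0.238), and the groups overlapped through WT replicate 3 at 2.39 TPM and P53 KO replicate 1 at 2.58 TPM. WT replicate 3 also had the neutrophil and monocyte marker S100a8 at 253 TPM, against 16.3 and 4.31 TPM in WT replicates 1 and 2. Its part in these differences was not tested. Fam212b, at -0.23 (-0.63 to 0.17), was the third member with no overlap, and 13% of all genes had none. Across the members 8 values were below 0 and 2, Ak1 at 0.48 and Ei24 at 0.02, above it, and their median was -0.43 against -0.03 over all genes. The interval was -0.41 to 0.36 for Psrc1 (-0.03) and -0.18 to 0.21 for Ei24. Fam212b and Zfp365 lay below 1 TPM in every P53 KO library and had passed the filter only through Chd8 KO, so their missed calls say little.

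Some of these values changed with the P53 KO libraries used. With only the run of 10 libraries, where P53 KO is replicate 3 alone and is assumed to vary like the other groups, the difference was -0.34 for Slc19a2, -0.68 for Zmat3 and -1.04 for Phlda3. Zfp990 turned from -0.42 to 0.65 there, so that 7 members were below 0 and 3 above. Without P53 KO replicate 3, which leaves the 2 libraries of the other run, Slc19a2 was called at -0.67, and 1253 genes were called in all in place of 24. Run and genotype cannot be told apart in that setting.

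Whether loss of Chd8 moves the members in cells without P53 was asked by DKO against P53 KO, which shares the DKO libraries with the rule. The test called 0 of the 10 members, and 0 had an unadjusted p under 0.05. Of the 10, Fam212b and Zfp365 were under 1 TPM in every library of both groups and passed the filter only through Chd8 KO. The rule also asked for a DKO level back at base, so genes raised by loss of Chd8 without P53 would hardly have been chosen. The count of 0 was thus largely set by the choice of members, and nothing is read from it. Over all genes 14.9% were called in either direction, 11.2% were called higher, and 31.2% had an unadjusted p under 0.05. That share depends on the setting, since the 1957 genes called became 310 with run as a covariate and 298 with only the run of 10 libraries. The 1471 called higher became 493 under median-of-ratios scaling. The members' values ran from -0.38 for Ak1 to 0.77 for Zfp990, with a median of 0.04 against 0.11 over all genes. Ei24 was the only member whose libraries did not overlap, at 60.7 ± 1.05 TPM in DKO against 54.7 ± 4.11 in P53 KO, a difference of 0.15 (95% interval -0.04 to 0.35), while 35.3% of all genes did not overlap. The upper bounds of the intervals were 0.40 for Phlda3, 0.55 for Zmat3 and 0.42 for Sulf2. Zfp990 had the widest interval, -0.56 to 2.09. The missed threshold does not show that the levels were equal.

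The tables list 53 transcripts for them, and 37 reached a mean of 1 TPM in at least 1 group. Of these, 32 were higher in every Chd8 KO library than in any WT library, 0 were lower and 5 overlapped. Over all 43445 transcripts at that level, 13.4% were higher and 11.1% lower, but the genes were chosen for their rise and some transcripts reached 1 TPM only in Chd8 KO, so the count supports nothing. Of the 2 transcripts of Fam212b, ENSMUST00000066610.7 made up 63% of the gene in WT and 54.3% in Chd8 KO. The most abundant transcript of Psrc1, ENSMUST00000090561.9, went from 20.8, 11.3 and 16.1 TPM in WT to 130, 93.9 and 94.2 in Chd8 KO.

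In Ak1 the main transcript differed between WT and Chd8 KO. Its main WT transcript, ENSMUST00000113277.7, was at 5.47, 4.46 and 3.65 TPM in WT, 5.7, 3.92 and 5.59 in Chd8 KO, 6.18, 5.2 and 4.54 in P53 KO, and 5.33, 3.96 and 5.67 in DKO, so that the libraries of all groups overlapped. ENSMUST00000068271.4 was at 0.334, 0 and 0.554 TPM in WT and at 37.7, 23.3 and 23.5 in Chd8 KO, and it reached at most 0.649 TPM in the libraries without P53. ENSMUST00000156578.7 went from a mean of 0.155 TPM in WT to 6.93 in Chd8 KO. It was at 1.92, 2.84 and 0.687 TPM in P53 KO, above every WT library, and at a mean of 0.165 TPM in DKO. The main WT transcript thus made up 90.1% of Ak1 in WT and 12.2% in Chd8 KO, while ENSMUST00000068271.4 went from 5.75% to 66.3%. The rise of the gene was carried by transcripts that were at or near 0 in WT. No table used here places these transcripts on the 4 RefSeq starts of Ak1.

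In Zmat3, ENSMUST00000168566.2 was at 1.98, 0.00527 and 5.14e-05 TPM in WT and at 26.9, 21.2 and 26.6 in Chd8 KO, where it made up 55.4% of Zmat3. The Zmat3 transcript ENSMUST00000029199.10 was at 0.896, 3.1 and 1.19 TPM in WT and 21.6, 12 and 10.9 in Chd8 KO, or 31.8% of the gene. The level of Zfp990 came from different transcripts in different groups. In WT replicate 3, ENSMUST00000128939.1 supplied 5.77 TPM, and that transcript was at 0 in all 3 Chd8 KO libraries. In Chd8 KO, ENSMUST00000105742.7 was at 12.6, 21.8 and 23.3 TPM and ENSMUST00000105741.1 at 11.2, 6.66 and 9.13, while in P53 KO ENSMUST00000105742.7 was at 0 in every library. Transcript shares are estimates from shared exons, and their counting error is unknown.

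**Figure D3:**
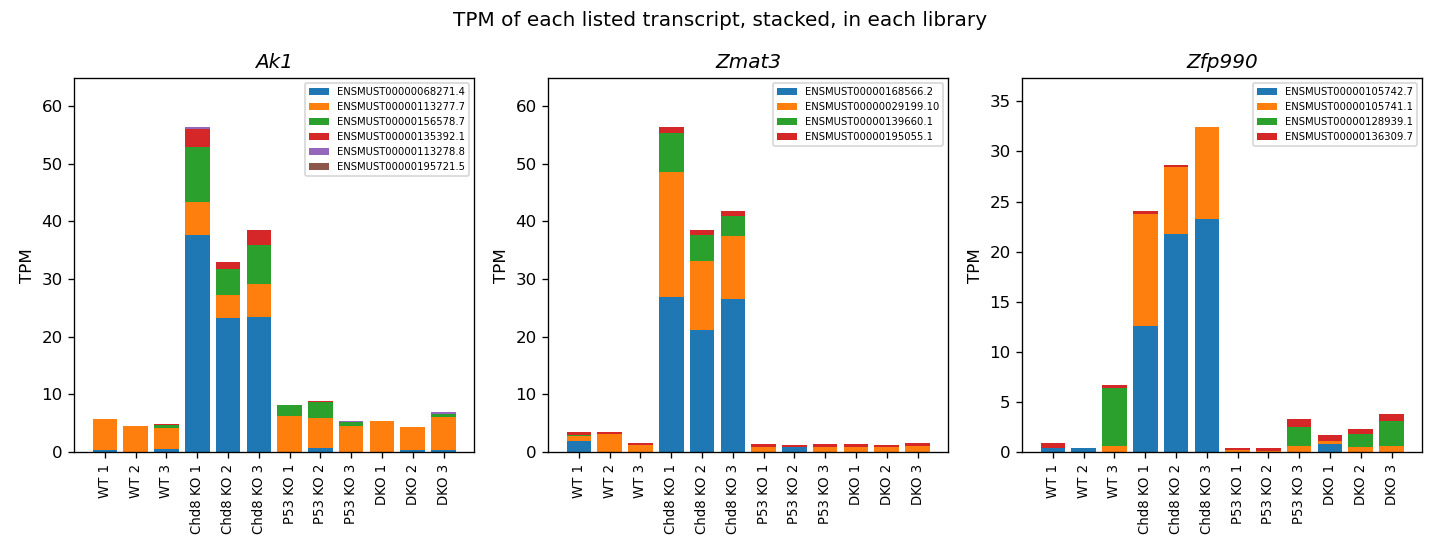
TPM of each listed transcript of Ak1, Zmat3 and Zfp990 (vertical axis, stacked) in each of the 12 libraries (horizontal axis). In Ak1 the segment of ENSMUST00000113277.7 keeps a similar height in all groups, between 3.65 and 6.18 TPM, while ENSMUST00000068271.4 appears at 23.3 to 37.7 TPM in Chd8 KO, and the Zfp990 level of WT 3 is a transcript that is at 0 in Chd8 KO.

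Other known P53 targets were set beside the members, from a list of 42 genes of which 38 were tested. In Chd8 KO against WT, 21 rose and 0 fell, while 9.65% of all genes were called higher and 6.98% lower. The median of the list was 0.89 against 0.02 over all genes. Eda2r, a receptor of the TNF receptor family, rose from 0.598 ± 0.146 to 15.4 ± 3.52 TPM (SD, n = 3), by 3.35 ± 0.19 (adjusted p = 3.66e-06). Cdkn1a, the p21 inhibitor of cyclin-dependent kinases, rose from 14.3, 12.8 and 13.9 TPM to 244, 171 and 116, by 3.54 ± 0.32 (adjusted p = 7.32e-05). The cyclin G gene Ccng1 rose by 2.06 ± 0.14, the BH3-only gene Bbc3 by 2.05 ± 0.15, the pore-forming Bax by 1.33 ± 0.10, the sestrin Sesn2 by 2.18 ± 0.17 and the exonuclease gene Aen by 1.07 ± 0.09. Mdm2, which encodes the ubiquitin ligase that degrades P53, was at 41.8 ± 7.1 TPM in WT and 56.6 ± 7.61 in Chd8 KO, a difference of 0.44 ± 0.16 that was not called (adjusted p = 0.0807).

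In DKO against Chd8 KO, 19 of the 38 fell and 1, Rrm2b, rose by 0.70 ± 0.18, while 4.21% of all genes were called lower there. The median was -0.86. Of the 38, 0 were called in P53 KO against WT, beside 0.182% of all genes, and 0 in DKO against WT, beside 5.23%. In DKO against P53 KO 2 rose, beside 11.2% of all genes called higher. These were Aen by 0.57 ± 0.09 and Rrm2b, a ribonucleotide reductase subunit, by 0.70 ± 0.18. Under median-of-ratios scaling the median of all genes in that comparison went from 0.114 to -0.007. The interaction was called lower for 12 of the 38, beside 0.836% of all genes, with a median of -0.72 against 0.10 over all genes. It was -3.29 ± 0.26 for Eda2r and -4.09 ± 0.45 for Cdkn1a. The list, like the members, was drawn up with earlier results of these libraries known, so its direction is no independent evidence.

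**Figure D4:**
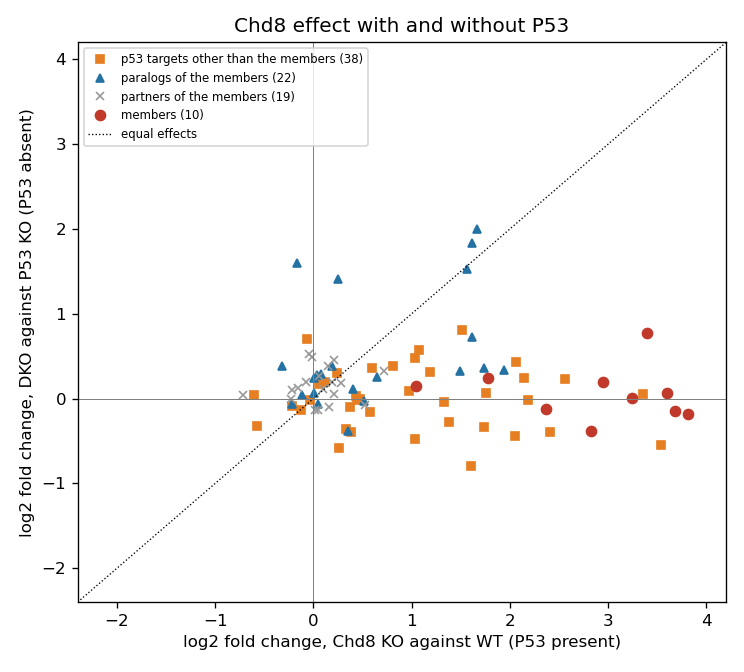
Log2 fold change of TPM + 1 in Chd8 KO against WT (horizontal axis) and in DKO against P53 KO (vertical axis), 1 point a gene, for the 10 members, 38 other P53 targets, 22 paralogs and 19 partners tested, with the dotted line where both effects are equal. The members lie along the horizontal axis, between 1.04 and 3.81 with P53 and between -0.38 and 0.77 without it, whereas the paralogs Zfp984 and Zfp987 lie above the dotted line at 2.00 and 1.84 without P53.

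Of 34 paralogs of the members, 22 were tested, and 8 rose in Chd8 KO against WT, with a median of 0.30 against 0.02 over all genes. The number that rose was 3 without Chd8 KO replicate 3, 4 without WT replicate 3, and 5 without Chd8 KO replicate 1 or 2. Fam212a rose by 0.51 ± 0.13 from 55.3 to 78.7 TPM (adjusted p = 0.0201). The rest of the 8 were zinc finger genes named beside Zfp990. Zfp979 was at 6.37, 12.1 and 7.89 TPM in WT, 29.1, 28.2 and 35.3 in Chd8 KO, 6.44, 8.98 and 9.76 in P53 KO, and 12.7, 10.4 and 9.94 in DKO. It rose by 1.74 ± 0.21 in Chd8 KO against WT and fell by 1.41 in DKO against Chd8 KO, and was the only paralog with a called interaction, -1.38 ± 0.30 (adjusted p = 0.0485). Zfp985 rose by 1.94 ± 0.29, Zfp984 by 1.66 ± 0.29 and Zfp987 by 1.61 ± 0.37.

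In cells without P53, 6 paralogs were called higher in DKO than in P53 KO and 0 lower. Zfp984 was at 6.63, 10.2 and 4.4 TPM in P53 KO and 26.7, 22.3 and 45.2 in DKO, a rise of 2.00 ± 0.29 (adjusted p = 0.00306). Zfp987 rose by 1.84 ± 0.37, Zfp991 by 1.60 ± 0.29 and Zfp992 by 1.41 ± 0.31. For Zfp991, whose Chd8 KO and WT libraries overlapped, P53 KO was at 7.58 to 12.2 TPM, below the 20 to 25.3 TPM of WT. Mean levels in P53 KO were also below WT for Zfp984 (7.07 against 17.8 TPM), Zfp987 (0.721 against 3.58) and Zfp992 (6.56 against 11.4). In DKO against WT 0 of the 22 tested paralogs were called, as in P53 KO against WT. The count of 6 in DKO against P53 KO was 1 with only the groups compared. It was 3 with only the run of 10 libraries, with run as a covariate, without P53 KO replicate 1 and without DKO replicate 3. The cause was not tested. The cluster lies between Zfp990 at chr4:145510759-145538251 and Zfp984 at chr4:147753974-147812229 (GRCm38), and reads of such near-identical copies may have been divided between them, so each level is uncertain.

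**Figure D5:**
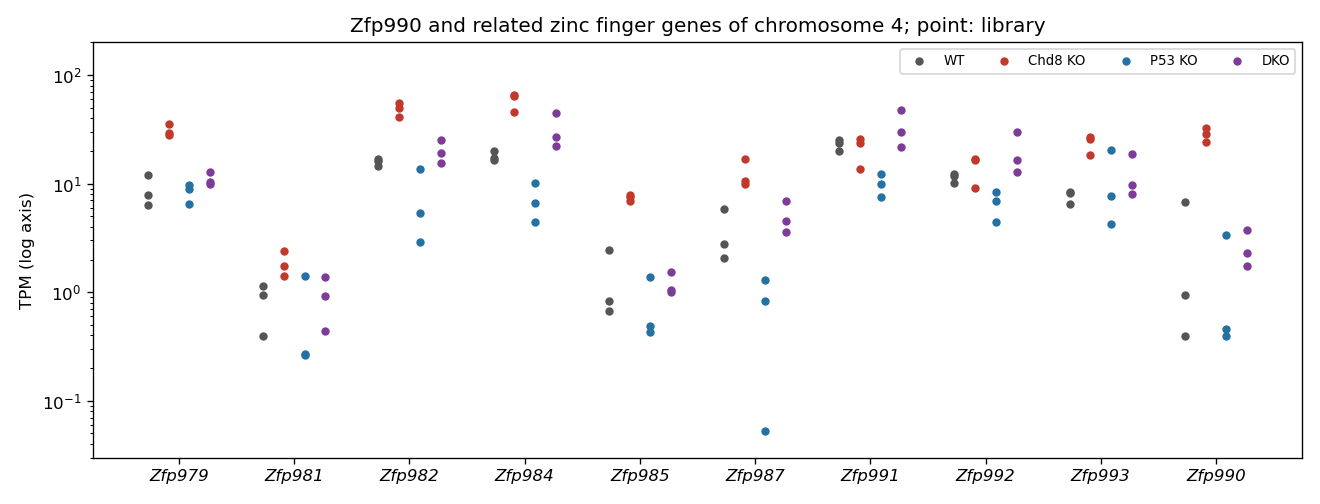
TPM (log axis) of Zfp990 and 9 tested zinc finger genes of the same part of chromosome 4 in each library, with points coloured by genotype. Zfp990, Zfp979, Zfp982, Zfp984, Zfp985 and Zfp987 are highest in the 3 Chd8 KO libraries, with Zfp985 at 6.99 to 7.8 TPM there. Zfp982, Zfp984, Zfp987, Zfp991 and Zfp992 are called higher in DKO than in P53 KO.

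Of 20 genes that are known to act with the members, 19 were tested, and 1 rose and 1 fell in Chd8 KO against WT. Over all genes 9.65% were called higher and 6.98% lower there, so these counts lie near the background and are no result about the partners. Bcl2l1, which encodes the survival protein Bcl-xL, rose by 0.72 ± 0.11 (23.6 to 39.3 TPM, adjusted p = 0.00166). Bcl2, its relative and the binding partner of Ei24, fell by 0.72 ± 0.16 on the log2 scale (30.6 to 18 TPM, adjusted p = 0.0113). The heparan sulfate enzyme gene Ndst1 was at 27.8 TPM in WT and 33.9 TPM in Chd8 KO, and it was not called. In DKO against P53 KO, Akt2, which encodes a kinase that Phlda3 restrains, rose by 0.27 ± 0.08 (adjusted p = 0.0411). Akt2 was the only partner called there, where 11.2% of all genes were called higher, so this too is no result about the partners.

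The nearest tested genes within 100000 bases on either side numbered 14, of which 2 rose and 0 fell in Chd8 KO against WT, with a median of 0.00. Such a count lies near the share of all genes called, 9.65% higher and 6.98% lower, and is no result about these neighbours. Ccdc181, next to Slc19a2, rose by 0.47 ± 0.11 (19 to 26.8 TPM, adjusted p = 0.0176), and Eng, which encodes endoglin and lies next to Ak1, rose by 0.36 ± 0.11 (99.4 to 128 TPM, adjusted p = 0.0434). Ncoa3 begins or ends 657 bases from Sulf2 and was at 29.3 and 22.7 TPM, a difference of -0.33 ± 0.16 that was not called. St6galnac6, 949 bases from Ak1, was at 35.1 and 34.6 TPM.

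The profile of the members was compared, as a description, with that of other tested genes with at least 5 TPM in a group mean. Predicted gene models, with symbols of Gm and digits or ending in Rik, were left out. The measure was Pearson's r of log2(TPM + 1) to the members' mean standardised profile over 12 libraries. The members themselves had r from 0.892 for Zfp990 to 0.998 for Fam212b. The 8 most similar genes were Eda2r at 0.997, Hmcn2 at 0.996, Tnfsf4 and Fam198b at 0.992, Bax at 0.990, Hist1h2al and Exoc4 at 0.988 and Gtse1 at 0.987. Tnfsf4, a TNF family ligand, was at 1.82, 27.8, 0.705 and 0.831 TPM in WT, Chd8 KO, P53 KO and DKO, and Hmcn2 at 0.495, 12.7, 0.335 and 0.376. Exoc4, a subunit of the exocyst complex, had a smaller range, at 38.6, 91.5, 33 and 35.8 TPM. The histone gene Hist1h2al was at a mean of 6.43 TPM in Chd8 KO and at 0 in the other groups, but its copies are near-identical and its level is uncertain. The r values share the same 12 libraries, in which the 3 Chd8 KO libraries stand apart.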

How the data were processed

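The authors deposited 1 table of transcript TPM for each of 12 RNA libraries. The submitters' processing notes name STAR 2.6.1e, featureCounts 1.6.2 and DESeq2 1.26.0 among their tools and GRCm38 (mm10) as the build, but no source used here names the tool behind the TPM. TPM sum to 1000000 in each library, so depth is unknown and a rise of some genes lowers the share left for the rest. The 4 ATAC-seq and 6 CUT&RUN samples were not analysed here.

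Transcript TPM were summed by gene symbol, and genes averaging 1 TPM or more entered limma 3.58.1 (R 4.3.3) as log2(TPM + 1), in 1 fit of all 12 libraries with eBayes, a mean-variance trend and 8 residual degrees of freedom. P-values were two-sided and adjusted by Benjamini-Hochberg over the 13162 genes. The fit was tested on simulated data. Tables were handled with Python 3.11.15 and pandas 2.3.3. The members, lists and tests were chosen with earlier results of these data known.

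Named genes were the members, Chd8, Trp53, Cdkn1a and Mdm2, up to 6 other P53 targets and up to 4 paralogs and partners with the smallest p in the comparison described, the nearest neighbours within 100000 bases, the 8 genes most like the members, and the genes ranked beside the lowest-ranked member. Fam212a and the zinc finger genes beyond these 4, and Rrm2b and Akt2 as the genes behind a count, were chosen after their values were seen. Some genes of the lists are not reported here. Alternatives were 2 other pseudocounts, 2 other filters, 2 other scalings, the most abundant transcript, the groups compared alone, a replicate block, run as a covariate, the run of 10 libraries, and each library left out.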

Additional observations from a re-analysis of the deposited data

Results flagged for a closer look

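For 7 of 18 named genes outside the members the effect of Chd8 loss differed with P53 present and absent, by the interaction in limma (the effect without P53 minus the effect with P53, log2 scale). Most of the 18 were named for a small p in Chd8 KO against WT, which enters the interaction, from lists drawn up with results known, so the count is a description and no independent evidence. The interaction was -4.09 ± 0.45 for Cdkn1a (adjusted p = 0.00108), -3.29 ± 0.26 for Eda2r (adjusted p = 0.000113), -2.49 ± 0.21 for Bbc3 (adjusted p = 0.000148), -2.20 ± 0.25 for Sesn2 (adjusted p = 0.0013), -1.63 ± 0.20 for Ccng1 (adjusted p = 0.00231) and -1.38 ± 0.15 for Bax (adjusted p = 0.00102). The last was the zinc finger gene Zfp979, at -1.38 ± 0.30 (adjusted p = 0.0485), whose level is uncertain because of near-identical copies.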

How the results depend on the processing

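All 10 members stayed higher in Chd8 KO than in WT under each of 23 alternatives that could be fitted, and their values there ran from 0.97 for Ei24 to 4.64 for Fam212b. The members were chosen by this rise and the alternatives reuse the same libraries, so their direction follows from the choice and supports nothing. In P53 KO against WT and DKO against P53 KO, 454 of 456 member values kept their side of the threshold. With the most abundant transcript, 1 member, Ei24 at 0.50, was called in DKO against P53 KO, and without P53 KO replicate 3 Slc19a2 was called in P53 KO against WT, so that the count there ran from 0 to 1 with each library left out. The causes of these shifts were not tested.

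Counts of genes called moved more. DKO against WT went from 688 to 1046 with run as a covariate, and DKO against Chd8 KO from 1386 to 2604 with only the groups compared. DKO against P53 KO went from 1957 to 1234 with median-of-ratios scaling, 319 with only the groups compared, 310 with run as a covariate and 298 with only the run of 10 libraries. The interaction went from 237 to 153 with a mean of at least 5 TPM, 95 with run as a covariate and 81 with the run of 10. Paralogs higher in DKO against P53 KO went from 6 to 1 with only the groups compared, and to 3 with run as a covariate and with the run of 10. With each library left out, the counts ran from 1154 to 2864 in Chd8 KO against WT, 16 to 1253 in P53 KO against WT, 283 to 1049 in DKO against WT, 524 to 1846 in DKO against Chd8 KO, 675 to 3089 in DKO against P53 KO and 122 to 1562 in the interaction. The highest value came without P53 KO replicate 3 in each of the 6. Paralogs higher ran from 3 to 9 in Chd8 KO against WT and from 3 to 8 in DKO against P53 KO. Median-of-ratios scaling lowered the share of higher calls from 75.2% to 40% in DKO against P53 KO, from 66.1% to 39.5% in DKO against WT and from 60% to 44.3% in DKO against Chd8 KO, and quantile normalization gave 47.8%, 52.1% and 46.1%. In Chd8 KO against WT it went from 58% to 49.9% with median-of-ratios scaling. In the interaction the share was 53.6%, 42.3% with median-of-ratios scaling and 33.6% with quantile normalization. With the replicate block, 1926 genes were called in Chd8 KO against WT in place of 2189, 22 in P53 KO against WT and 1853 in DKO against P53 KO, with 0 members called in these last 2. Same-numbered libraries deviated from their group means with correlations of -0.25 to 0.12, so the numbers were not taken to pair the samples. Depth is unknown, so counting error of low members such as Fam212b and Zfp365 cannot be given.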
